A study of Mus musculus with 9 samples.

Results

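The serpin genes, which encode serine protease inhibitors and their non-inhibitory relatives, were followed in neutrophils of chemically induced skin lesions. Members were all genes whose name on the array starts with Serpin, which gave 61 genes and 78 probes among 34797 genes and 55681 probes. The letter after the name gives the clade, and the members fell into 9 clades, with 24 genes in clade A, 27 in clade B and 1 or 2 in each of clades C to I. A gene's value was the median over its probes in the deposited table of log2 values.

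Gr-1bright neutrophils were sorted from female FVB/N wild-type mice, all of which received the carcinogen DMBA on the skin at 6 and 13 weeks of age and the tumor promoter PMA repeatedly from week 1 to week 18 to 20. The groups were neutrophils of skin next to papillomas (papilloma skin, 2 arrays), skin next to tumors (tumor skin, 2 arrays), papillomas (papilloma, 3 arrays) and tumors (tumor, 2 arrays), with no untreated skin among them. The RNA on each array came from a pool of mice, which makes the spread between arrays that between pools, and lesions and skin were dissociated with different enzyme mixes, which cannot be told apart from the lesion effect. In RNA of a sorted population, fewer cells of a type and less RNA per cell cannot be told apart.

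Serpins present a reactive center loop as bait, and inhibitory members trap the protease that cuts it in a covalent complex. Clade A members such as alpha-1-antitrypsin are mostly secreted by the liver and protect tissue from neutrophil elastase, whereas clade B members lack a classical secretion signal and guard the inside of cells, neutrophils among them, against their own granule proteases. Members of clades C, D and E restrain thrombin and the plasminogen activators, and a few members, among them Serpinf1 and Serpinh1, inhibit no protease.

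The 4 alpha-1-antitrypsin genes with probes, Serpina1a, Serpina1c, Serpina1d and Serpina1e, were all called higher in papilloma, and 2 of them also in tumor. They lie in 1 cluster of near-identical copies on chromosome 12, and their start regions are shown to describe how alike the copies are there. These windows do not show how alike the probes are, whose shared runs are given below. The windows below are taken from RefSeq promoter sequences on the minus strand of build GRCm38.p6, 5′ to 3′, and the capitals mark the run GGTTAATATTCA, which holds GTTAAT, the core of the binding motif of the liver factor HNF1.
Serpina1a, chr12:103863600-103863711: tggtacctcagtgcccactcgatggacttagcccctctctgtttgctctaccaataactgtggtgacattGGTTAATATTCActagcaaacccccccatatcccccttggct
Serpina1c, chr12:103904937-103905048: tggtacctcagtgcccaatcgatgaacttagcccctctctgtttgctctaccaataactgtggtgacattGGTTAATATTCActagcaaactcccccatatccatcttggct
Serpina1d, chr12:103773609-103773720: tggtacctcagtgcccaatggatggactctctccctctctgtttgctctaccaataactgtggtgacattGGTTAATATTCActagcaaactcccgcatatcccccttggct
Serpina1e, chr12:103956935-103957046: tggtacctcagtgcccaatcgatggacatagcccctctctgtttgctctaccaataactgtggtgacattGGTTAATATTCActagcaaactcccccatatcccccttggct

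Between any pair of these windows 103 to 109 of 112 positions were identical. On either strand, GTTAAT occurred in 7.10% of 32851 promoters of the same length (250 bases before to 50 after the gene start), in 10 of the 49 members with a promoter in the table and in 4 of the 9 members with a promoter that were called below, which are the 4 genes shown. The run GGTTAATATTCA occurred in 5 of the 32851 promoters, all of the Serpina1 cluster, including Serpina1b, which has no probe of that name on the array. These letter matches are a description of the windows and show no binding.

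Some arrays and columns stood apart and bear on every value given here. On 6 arrays 43.6% to 63.6% of probes were well above background, against 95.0% on papilloma skin 1, 94.3% on tumor 1 and 90.7% on tumor skin 1, and no spot was saturated. The rank correlation across probes between a column of the value table and the scanner file of the same array was 0.930 to 0.980 for 7 columns, but 0.587 for papilloma skin 1 and 0.825 for tumor 1, whose columns were both closest to the scanner file of tumor 2 (0.923 and 0.946). The columns of papilloma 2 and papilloma 3 were each closest to the other's file. Comparisons use all 9 columns, and the called values are also given with the 7 columns left without papilloma skin 1 and tumor 1, where papilloma skin and tumor keep 1 array each and the lone array is assumed to vary like those of the other groups. The scanner files, normalized anew with quantile normalization and ComBat for slides, gave another set of values.

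A gene was called where limma, fitted over all genes, gave a p of 0.05 or less after Benjamini-Hochberg adjustment, the log2 fold change was 1 or more in size, and the log2 level averaged 6 or more. In papilloma versus papilloma skin, 10 of the 61 serpins (16.4%) were called, against 3.60% of all genes. Of these, 8 were higher in papilloma, where 2.43% of all genes were called higher, and 2 were lower, where 1.17% of all genes were called lower. In tumor versus tumor skin, 5 of the 61 (8.20%) were called, against 4.36% of all genes, with 3 higher, beside 2.75% of all genes, and 2 lower, beside 1.61%, and all 5 were among the 10 of the papilloma stage. The lesion groups share no arrays, but both stages were fitted with 1 common spread. The median log2 fold change over the 61 members was 0.16 in papilloma and 0.23 in tumor, beside -0.01 over all genes in both comparisons. With 7 columns 9 members (14.8%) were called in papilloma, 7 of them among the 10, against 2.35% of all genes. In tumor 2 (3.28%) were called with 7 columns, of which only Serpind1 was among the 5, and this share lay below the 3.69% of all genes. The papilloma count rested largely on papilloma skin 2: without that array 2 members (3.28%) were called against 2.62% of all genes.

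**Figure D1:**
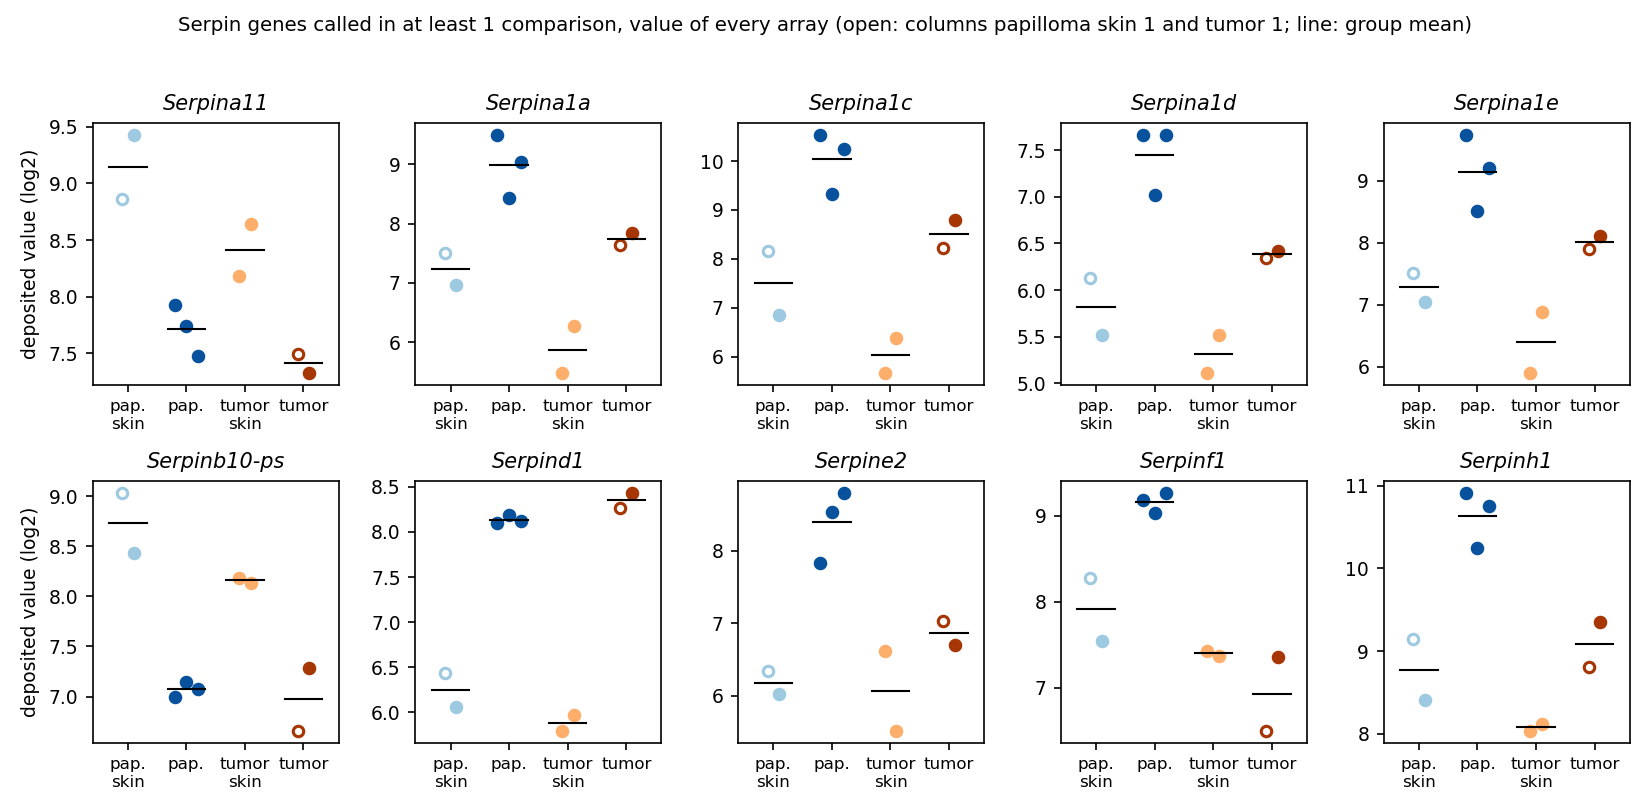
Deposited log2 value of each of the 9 arrays for the 10 serpin genes called in at least 1 comparison; each point is 1 array, the line is the group mean, and open points are the columns papilloma skin 1 and tumor 1. The vertical axes differ between genes and levels are not comparable between them. Serpind1 shows a wide gap between lesions and skin at both stages, while Serpine2, Serpinf1 and Serpinh1 lie highest in the 3 papilloma arrays.

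Serpind1 encodes heparin cofactor II, an inhibitor of thrombin, and was the only member called higher in both lesions under 9 columns, 7 columns and the scanner files. Its values were 6.44 and 6.06 in papilloma skin and 8.10, 8.18 and 8.12 in papilloma. They were 5.79 and 5.97 in tumor skin and 8.27 and 8.43 in tumor. All 5 lesion arrays lay above all 4 skin arrays, and the lowest lesion value was 1.67 above the highest skin value on the log2 scale. The log2 fold change against skin was 1.89 ± 0.15 (SE, limma adjusted p = 0.000436) at the papilloma stage and 2.47 ± 0.16 (adjusted p = 0.000438) in tumor versus tumor skin. With 7 columns it was 2.55 (adjusted p = 0.0113) in tumor. In papilloma the only skin array then left, papilloma skin 2, was not well above background for this gene, so that 2.07 (adjusted p = 0.0101) is a lower bound, at least 4.21-fold higher. From the scanner files the changes were 3.59 (adjusted p = 0.00437) and 3.27 (adjusted p = 0.0212). Its single probe lies at chr16:17343544-17343603 on the plus strand of build mm9 and was well above background on 1 of the 2 arrays in each skin group, as it was not on papilloma skin 2 and tumor skin 2.

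The alpha-1-antitrypsin genes were lowest in tumor skin and highest in papilloma. Serpina1c read 8.17 and 6.85 in papilloma skin, 10.54, 9.32 and 10.24 in papilloma, 5.67 and 6.39 in tumor skin, and 8.22 and 8.79 in tumor. Serpina1a read 7.50 and 6.97 in papilloma skin, 9.49, 8.42 and 9.03 in papilloma, 5.49 and 6.27 in tumor skin, and 7.64 and 7.85 in tumor. Lesion and skin arrays of the same stage did not overlap for either gene, but the tumor arrays lay only slightly above papilloma skin 1.
Serpina1e read 7.51 and 7.05 in papilloma skin, 9.74, 8.50 and 9.20 in papilloma, 5.90 and 6.89 in tumor skin, and 7.91 and 8.10 in tumor. Serpina1d read 6.13 and 5.52 in papilloma skin, 7.67, 7.02 and 7.66 in papilloma, 5.11 and 5.52 in tumor skin, and 6.35 and 6.42 in tumor. Papilloma 2 was the lowest papilloma array and tumor skin 1 the lowest skin array for all 4 genes.

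At the papilloma stage the log2 fold change was 2.52 ± 0.48 for Serpina1c (limma adjusted p = 0.0181), 1.87 ± 0.39 for Serpina1e (adjusted p = 0.0267), 1.75 ± 0.35 for Serpina1a (adjusted p = 0.0215) and 1.63 ± 0.26 for Serpina1d (adjusted p = 0.00911). In tumor versus tumor skin Serpina1c rose by 2.48 ± 0.52 (adjusted p = 0.0250) and Serpina1a by 1.86 ± 0.38 (adjusted p = 0.0219). Serpina1e, at 1.61 ± 0.43, and Serpina1d, at 1.07 ± 0.29, were higher in both tumor arrays but missed the threshold, both with an adjusted p of 0.052. With 7 columns the fold changes were 1.93 to 3.18 in papilloma, where Serpina1c (adjusted p = 0.0447) and Serpina1d (adjusted p = 0.0464) were called, and 1.10 to 2.76 in tumor, where none of the 4 was called. Serpina1d was not well above background on papilloma skin 2 and tumor skin 2, and Serpina1c not on tumor skin 2, so that with 7 columns the 1.93 of Serpina1d in papilloma is a lower bound, at least 3.81-fold higher. From the scanner files they were 3.57 to 5.38 in papilloma and 0.20 to 0.97 in tumor, so the size at the tumor stage depended strongly on the values used. In tumor versus papilloma the 4 genes were at -1.06 to -1.53 with no overlap of the arrays, and none was called.

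The results of Serpina1a, Serpina1c and Serpina1e do not count as separate measurements. The Serpina1c probe shares a run of 47 of its 60 bases with 1 of the 2 Serpina1a probes, and runs of 29 bases with a Serpina1e probe, so that RNA of 1 gene may bind the probe of another. No run of such length was found between a Serpina1d probe and that of another gene. Whether the Serpina1d probes bind RNA of the other copies was not tested. Of the 2 Serpina1a probes, the one that shares 47 bases changed by 2.32 in papilloma and the other by 1.17. The 2 Serpina1e probes differed in the same way in tumor versus tumor skin, at 2.47 for the probe with the shared run and 0.74 for the other. The 2 Serpina1d probes changed by 1.92 and 1.33 in papilloma.

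Serpinf1, Serpinh1 and Serpine2 were highest in papilloma. Serpinh1, also known as HSP47, is a collagen chaperone of the endoplasmic reticulum that inhibits no protease. Its probe lies at chr7:106493971-106494030 (mm9, minus strand). Serpinh1 read 9.15 and 8.40 in papilloma skin, 10.91, 10.25 and 10.76 in papilloma, 8.04 and 8.13 in tumor skin, and 8.81 and 9.35 in tumor. The papilloma arrays lay above all other arrays, and the tumor arrays above tumor skin. In papilloma its log2 fold change was 1.86 ± 0.28 (limma adjusted p = 0.00739; 2.23 with 7 columns, adjusted p = 0.0253; 2.59 from the scanner files, adjusted p = 0.00897). In tumor versus tumor skin it was 1.00 ± 0.31 and missed the threshold (adjusted p = 0.0801; 1.27 with 7 columns, adjusted p = 0.0708).

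Serpine2, or protease nexin-1, inhibits thrombin, urokinase and tissue plasminogen activator. It read 6.35 and 6.02 in papilloma skin, 7.83, 8.53 and 8.79 in papilloma, 6.62 and 5.52 in tumor skin, and 7.03 and 6.71 in tumor. Again the 3 papilloma arrays were the highest, and tumor skin 1 lay just below the tumor arrays. The change in papilloma was 2.20 ± 0.37 (limma adjusted p = 0.0109), which was 2.37 with 7 columns (adjusted p = 0.0867) and 1.25 from the scanner files (adjusted p = 0.384). The change in tumor was 0.80 ± 0.40 and was not called (adjusted p = 0.248; 0.64 with 7 columns), and tumor skin 2 was not well above background for this gene.

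Serpinf1, or PEDF, is a secreted non-inhibitory serpin known for blocking vessel growth. It read 8.27 and 7.55 in papilloma skin, 9.18, 9.03 and 9.26 in papilloma, 7.43 and 7.37 in tumor skin, and 6.50 and 7.36 in tumor. It was the only member called between the lesions, where 0.606% of all genes were called and 0.460% were lower in tumor, and it was higher in papilloma than in papilloma skin by 1.25 ± 0.28 (limma adjusted p = 0.0358) and lower in tumor than in papilloma by 2.23 ± 0.28 on the log2 scale (adjusted p = 0.0155). In tumor versus tumor skin its log2 fold change was -0.47 ± 0.31 (adjusted p = 0.373; -0.04 with 7 columns). The difference between the 2 lesion effects was -1.72 ± 0.42 and did not pass (adjusted p = 0.172). Its 2 probes, at chr11:75229163-75229222 and chr11:75223582-75223641 (mm9, minus strand), gave -1.66 and -2.80 in tumor versus papilloma. With 7 columns the papilloma change was 1.61 (adjusted p = 0.0174), whereas tumor versus papilloma was -1.80 and no longer called (adjusted p = 0.0736). From the scanner files the latter was -0.26 (adjusted p = 0.857), so this call rests on the deposited columns.

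Levels of cell type markers also differed between the groups, and their part in the results was not tested. The median of the 10 fibroblast markers, 8 of which were well above background on all arrays, was 9.70 to 10.97 on the papilloma arrays, 8.37 and 9.24 on papilloma skin, 7.04 and 8.34 on tumor skin, and 7.56 and 8.86 on tumor. Between lesion and skin these array medians do not stand for a shift of the whole list. In papilloma versus papilloma skin 4 of the 10 markers had a log2 fold change above 0 and 6 below, with a median of -0.08 (0.42 with 7 columns). In tumor versus tumor skin 6 were above 0 and 4 below, with a median of 0.19 (0.78 with 7 columns). Between the lesions most of the list did shift: in tumor versus papilloma 9 were below 0 and 1 above, with a median of -1.59 (-1.01 with 7 columns). The 4 above 0 in papilloma versus papilloma skin were Postn and the collagen genes Col1a1, Col1a2 and Col3a1, and the lowest value was that of Mfap5, at -1.46. Postn, a matrix protein of activated fibroblasts, rose by 3.09 in papilloma (limma adjusted p = 0.00785), Col3a1, a fibrillar collagen, was lower in tumor than in papilloma by 1.84 on the log2 scale (adjusted p = 0.0497), and Dcn, a matrix proteoglycan, was lower in tumor than in tumor skin. The median of the 6 endothelial markers, 3 of them well above background throughout, was 8.59 to 8.90 on the papilloma arrays and 6.28 to 8.00 on all others, with all 6 above 0 in papilloma versus papilloma skin (median log2 fold change 1.28, and 1.36 with 7 columns) and Cdh5, Emcn and Pecam1 called. In tumor versus papilloma all 6 endothelial markers were below 0, with a median of -1.10 (-0.92 with 7 columns). Of the 15 keratinocyte markers 11 were well above background on all arrays, and the keratins Krt6a, Krt6b and Krt16 were called higher in both lesions, by 2.38 to 5.53. The median log2 fold change of the keratinocyte list was 0.65 in papilloma and 0.93 in tumor, and 1.10 and 1.88 with 7 columns.

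**Figure D2:**
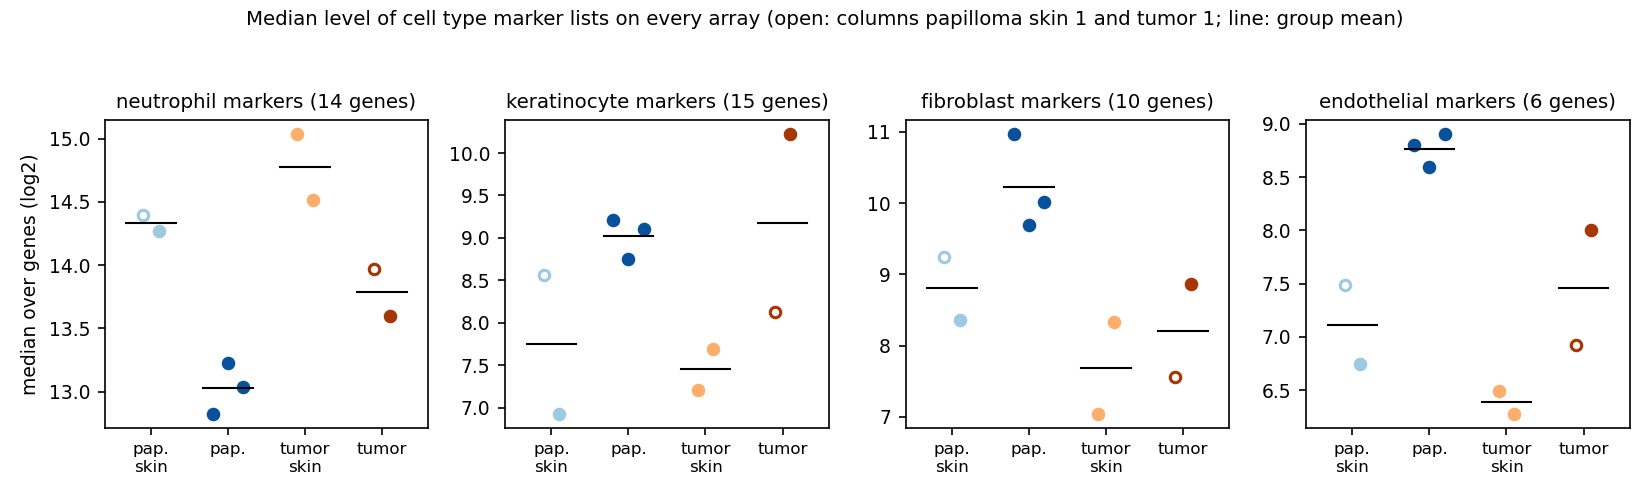
Median log2 value over the genes of 4 cell type marker lists on each of the 9 arrays; each point is 1 array, the line is the mean of the group's arrays, and open points are the columns papilloma skin 1 and tumor 1. The 3 papilloma arrays have the highest fibroblast and endothelial medians and the lowest neutrophil medians, which remain at 12.8 to 13.2.

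All 14 neutrophil markers listed were well above background on all arrays, and their median was 12.8 to 15.0 on the 9 arrays. In each lesion comparison 13 of the 14 had a log2 fold change below 0, with a median of -0.31 in papilloma and -0.73 in tumor (-0.48 and -0.92 with 7 columns). Within the list, the granule protein genes Camp, Ltf, Ngp and Mmp8 were called lower in both lesions, with log2 fold changes of -4.13 to -1.92, and Ly6g was at -2.09 in tumor versus tumor skin. Of the other lists, 3 of the 5 eosinophil markers (Ccr3, Ear1 and Il5ra) and Emr1 were called lower in both lesions, and Igj, a plasma cell gene of the B cell list, was called at -6.71 in papilloma and -7.13 in tumor.

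Serpinb10-ps and Serpina11 were the 2 members lower in lesions. The probe named Serpinb10-ps carries an accession that RefSeq now names Serpinb10, or bomapin, a nuclear serpin of myeloid cells, and lies at chr1:109443390-109443449 (mm9, plus strand). It read 9.03 and 8.43 in papilloma skin, 6.99, 7.14 and 7.08 in papilloma, 8.18 and 8.14 in tumor skin, and 6.66 and 7.29 in tumor. All lesion arrays lay below all skin arrays. Its log2 fold change was -1.66 ± 0.23 in papilloma (limma adjusted p = 0.00496) and -1.19 ± 0.25 in tumor (adjusted p = 0.0247). With 7 columns it was -1.36 (adjusted p = 0.0190) and -0.87, the latter below the fold limit. From the scanner files it was 0.15 (adjusted p = 0.820) in papilloma, with the sign turned, and -1.77 (adjusted p = 0.148) in tumor. The neutrophil granule genes and eosinophil markers above fell in the same comparisons, and their part was not tested.

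Serpina11 lies in the clade A cluster on chromosome 12, with probes that overlap at chr12:105218462-105218521 and chr12:105218465-105218524 (mm9, minus strand). It read 8.86 and 9.43 in papilloma skin, 7.93, 7.74 and 7.48 in papilloma, 8.18 and 8.64 in tumor skin, and 7.50 and 7.33 in tumor. Lesion arrays again lay below all skin arrays. Its log2 fold change was -1.43 ± 0.23 in papilloma (limma adjusted p = 0.00859) and -1.0 ± 0.25 in tumor (adjusted p = 0.0409), the latter at the edge of the fold limit. With 7 columns it was -1.71 (adjusted p = 0.0388) and -1.08 (adjusted p = 0.0859), and from the scanner files -0.72 and -2.26, neither of them called.

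**Figure D3:**
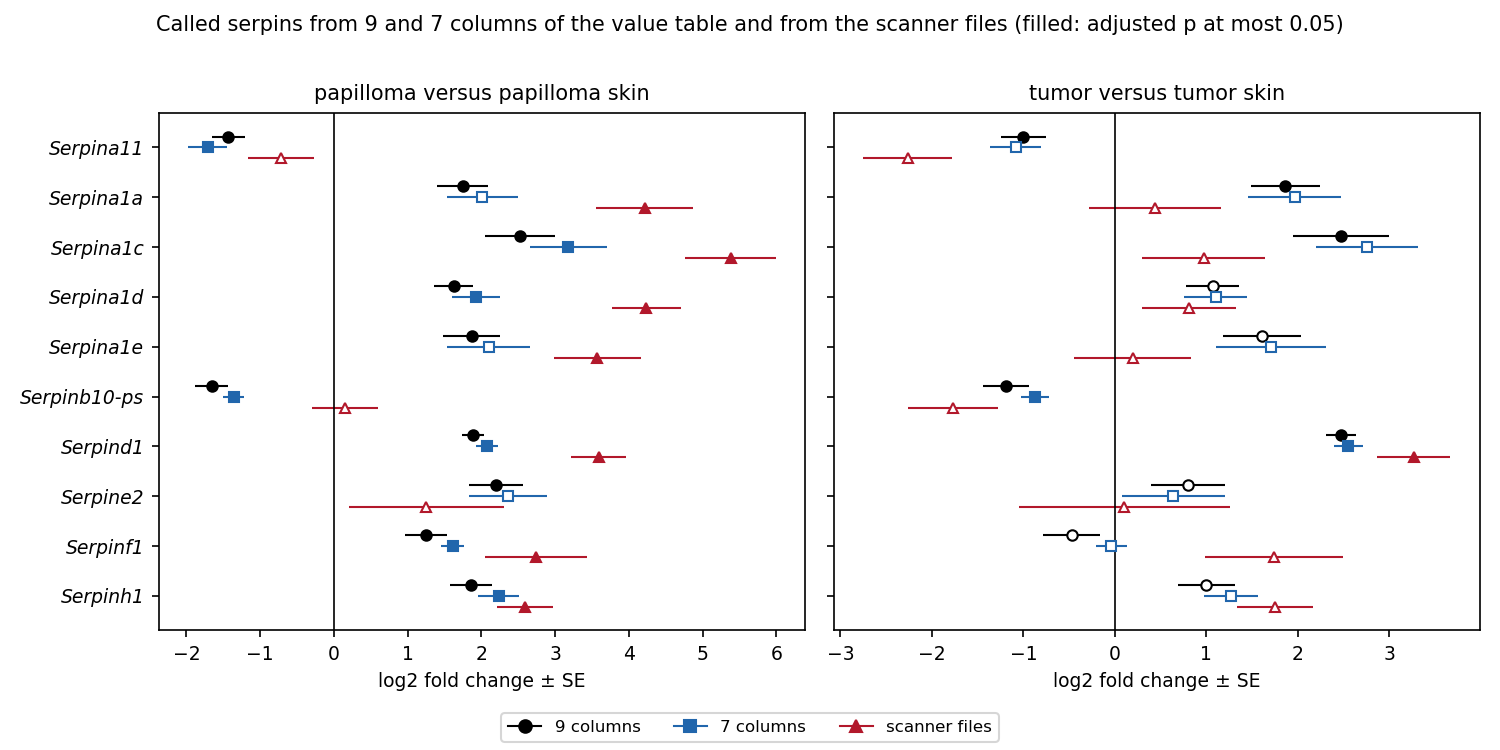
Log2 fold change with its SE for the 10 called serpins, in papilloma versus papilloma skin (left) and tumor versus tumor skin (right), from 9 and from 7 columns of the value table and from scanner files after quantile normalization and ComBat; filled symbols have an adjusted p of at most 0.05. Serpind1 is filled in all 6 cases, and Serpinb10-ps in papilloma is at -1.66, -1.36 and 0.15.

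The arrays lay on 3 slides, of which slide 1 held the first array of every group and slide 2 held papilloma skin 2, papilloma 2 and tumor 2. Within slide 1 the 10 members called in papilloma differed from papilloma skin by 0.91 to 2.37 in size on the log2 scale, and within slide 2 by 1.29 to 2.51. For tumor versus tumor skin only slide 1 held both groups, and there the 5 called members differed by 0.69 to 2.55 in size. In every called comparison the arrays of the groups did not overlap, so the direction within a slide was fixed in advance and is no separate support. All slide 1 values use the columns papilloma skin 1 or tumor 1, and those of slide 2 use papilloma 2, columns that were closest to the scanner file of another array, and papilloma skin 2 was not well above background for Serpind1 and Serpina1d. Serpinf1 was lower in tumor than in papilloma by 2.69 within slide 1 and by 1.67 within slide 2. With slide as a term in the model 3 members (4.92%, beside 2.20% of all genes) stayed called in papilloma, namely Serpina1d, Serpinb10-ps and Serpind1, 1 in tumor (Serpind1, 1.64% beside 0.583%) and none between the lesions.

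Between the skin groups no serpin was called, where 0.376% of all genes were (0.195% higher and 0.181% lower in tumor skin). An unadjusted limma p under 0.05 was reached by 12 of the 61, beside 7736 of all 34797 genes, so serpins were not in excess. Below, members outside the calls were picked after their values were seen, other than Serpinc1 and Serping1. Serpinb2, an inhibitor of urokinase, read 10.43 and 9.96 in papilloma skin and 7.72 and 8.76 in tumor skin, a difference of -1.96 ± 0.45 (limma adjusted p = 0.0829). The skin groups did not overlap, with 7 columns the difference was -1.72 (adjusted p = 0.313), and from the scanner files it was 0.56, with the opposite sign.

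The lesion effects of the stages were not shown to differ for any serpin: none was called in the test of the difference, where 0.0891% of all genes were. Of the 61 members 12 had an unadjusted limma p under 0.05, beside 4911 of all 34797 genes. The differences over the 61 members ran from -1.72 for Serpinf1 to 1.91 for Serpinb2.

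Of the other 26 clade B genes, none was called in either lesion with 9 columns, with log2 fold changes of -0.95 to 1.42 in papilloma and -0.74 to 1.90 in tumor. Serpinb1a, a cytosolic inhibitor of neutrophil elastase, proteinase 3 and cathepsin G, read 11.30 and 10.80 in papilloma skin, 10.19, 10.27 and 9.84 in papilloma, 11.61 and 11.50 in tumor skin, and 10.51 and 11.11 in tumor. It was lower in every lesion array than in its own skin group, at -0.95 ± 0.23 (limma adjusted p = 0.0474) in papilloma, just short of the fold limit, and -0.74 ± 0.25 (adjusted p = 0.106) in tumor, and with 7 columns at -0.70 (adjusted p = 0.160) and -0.44 (adjusted p = 0.279). Serpinb6a, an intracellular inhibitor of cathepsin G, was at 0.57 ± 0.27 and 0.90 ± 0.30 and not called, and Serpinb6b, at 0.86 ± 0.36 and 1.20 ± 0.40, was called in both lesions with 7 columns (1.35, adjusted p = 0.0361, and 1.74, adjusted p = 0.0212), the first a lower bound since papilloma skin 2 was not well above background. From the scanner files after quantile normalization and ComBat, Serpinb6a and Serpinb6c were called in papilloma, where 8.01% of all genes were, and not in tumor. The Serpinb6a probe shares a run of 26 bases with both Serpinb6c probes, so these calls are not separate measurements. Serpinb8, an inhibitor of furin, read 11.64 to 12.25 on the 9 arrays and differed by 0.30 ± 0.17 and 0.06 ± 0.19 between lesion and skin.

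Serpinb9e, Serpinb9f and Serpinb9g, relatives of the granzyme B inhibitor Serpinb9, had adjusted p values of 0.00868 to 0.0144 in tumor versus tumor skin but mean levels below 6. Serpinb9g read 4.87 and 4.61 in tumor skin and 5.67 and 6.23 in tumor, but was not well above background on either tumor skin array, so that only a bound can be given, at least 1.94-fold higher in tumor. The Serpinb9g and Serpinb9f probes share a run of 41 bases. Serpinb5, or maspin, an epithelial serpin, read 7.55 to 9.09 in the skin arrays and 8.63 to 10.62 in the lesion arrays, and was not called (adjusted p = 0.263 in papilloma). The remaining clade B genes were Serpinb1b, Serpinb1c, Serpinb3a, Serpinb3b, Serpinb3c, Serpinb3d, Serpinb6c, Serpinb6d, Serpinb6e, Serpinb7, Serpinb9, Serpinb9b, Serpinb9c, Serpinb9d, Serpinb11, Serpinb12 and Serpinb13. Of these Serpinb1b, Serpinb9b and Serpinb9d were not well above background on any array.

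**Figure D4:**
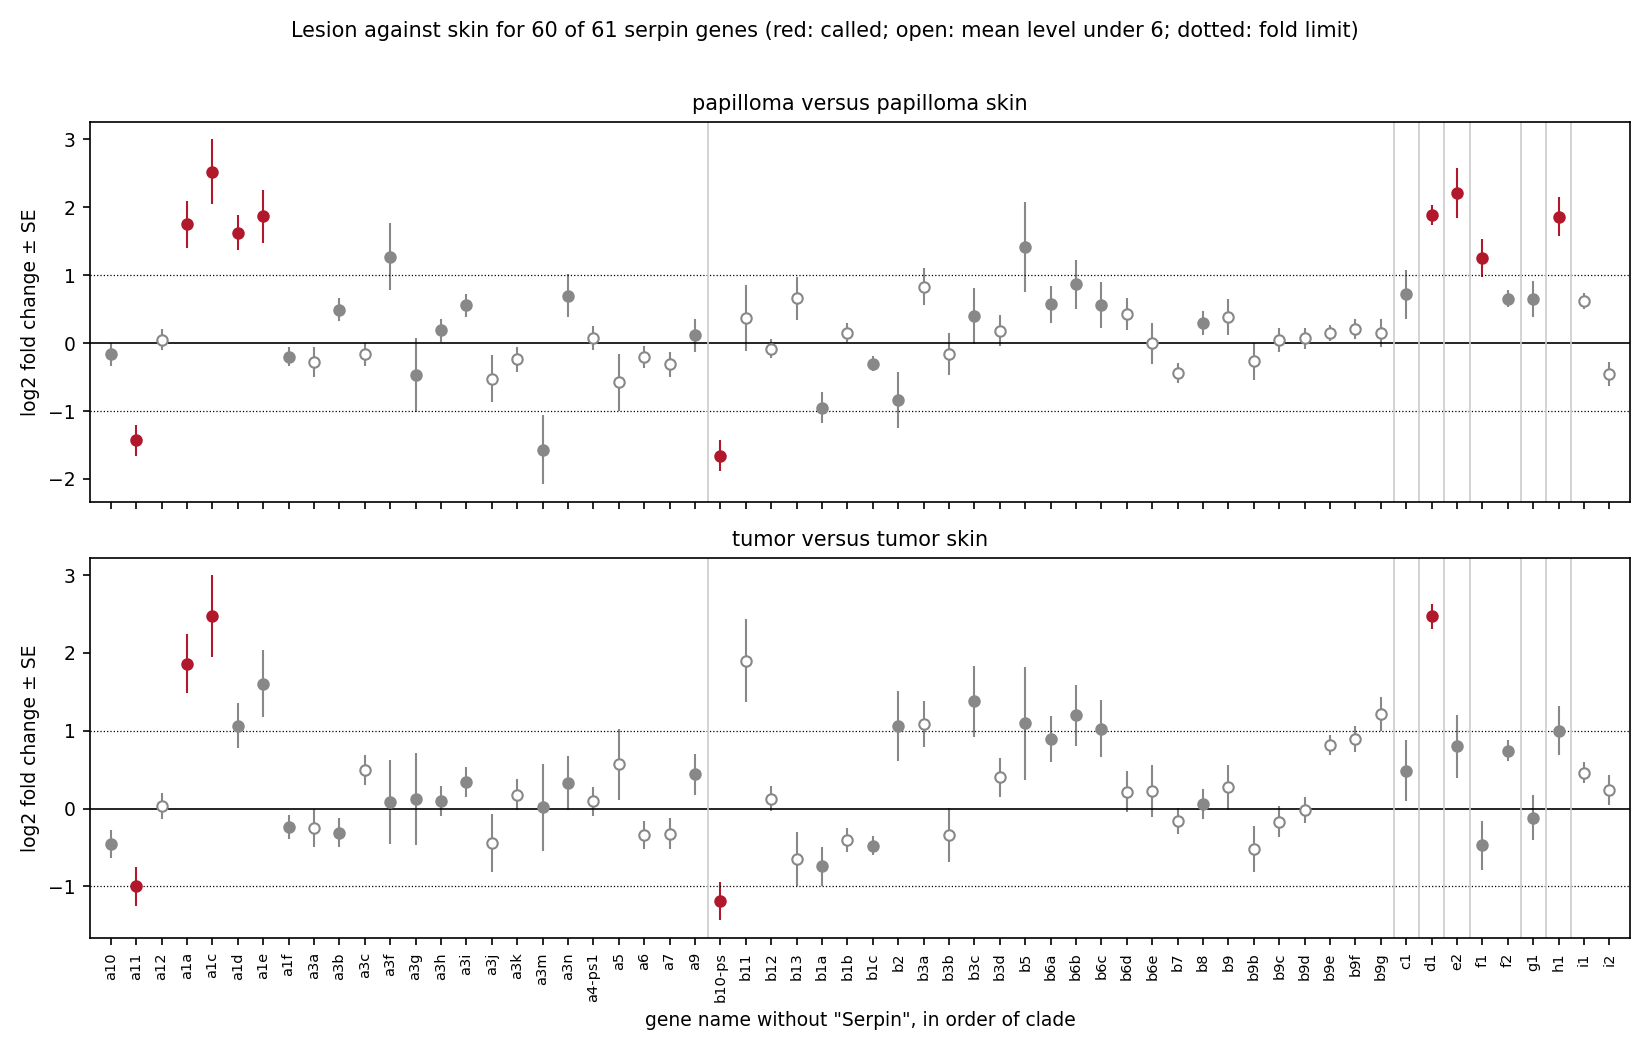
Log2 fold change with its SE of 60 of the 61 serpin genes in papilloma versus papilloma skin (top) and tumor versus tumor skin (bottom), ordered by clade; red points were called, open points had a mean level under 6, and dotted lines mark the fold limit of 1. In papilloma clade A holds 5 of the 10 called members (20.8% of its 24 genes), 4 of them alpha-1-antitrypsin genes. Of these, Serpina1a, Serpina1c and Serpina1e are not separate measurements. Clade B holds 1 (3.70% of its 27 genes), near the 3.60% of all genes, and only 10 of the 27 reached a mean level of 6.

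Of the 24 clade A genes the 19 not called in papilloma with 9 columns ranged from -1.57 (Serpina3m) to 1.27 (Serpina3f). Serpina3f was called there from the scanner files. Serpina3n, an inhibitor related to alpha-1-antichymotrypsin, read 7.17 and 6.29 in papilloma skin, 7.47, 7.22 and 7.60 in papilloma, 5.82 and 5.75 in tumor skin, and 5.67 and 6.57 in tumor. Its change in papilloma was 0.70 ± 0.32 (limma adjusted p = 0.252) with 9 columns, but 1.14 (adjusted p = 0.0469) with 7 columns and 3.0 (adjusted p = 0.0104) from the scanner files, which both call it. The others were Serpina10, Serpina12, Serpina1f, Serpina3a, Serpina3b, Serpina3c, Serpina3g, Serpina3h, Serpina3i, Serpina3j, Serpina3k, Serpina4-ps1, Serpina5, Serpina6, Serpina7 and Serpina9.

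Clades C, G and I held no called member with 9 columns, though Serping1 was called in papilloma from the scanner files. Serpinc1, or antithrombin, had group means of 6.02 in papilloma skin, 6.74 in papilloma, 6.51 in tumor skin and 7.0 in tumor, and a change of 0.72 ± 0.36 in papilloma (limma adjusted p = 0.297). Serping1, the C1 inhibitor of the complement and contact systems, had group means of 8.92, 9.57, 8.78 and 8.67 in the same order, and was at -0.90 ± 0.27 in tumor versus papilloma (adjusted p = 0.184). In clade I neither Serpini1, or neuroserpin, nor Serpini2 reached a mean level of 6. Serpinf2, or alpha-2-antiplasmin, and Serpini1 passed the adjusted p in papilloma but not the fold limit, at 0.66 ± 0.13 (adjusted p = 0.0191) and 0.62 ± 0.12 (adjusted p = 0.0202). Serpinf2 also did so in tumor, at 0.75 ± 0.14 (adjusted p = 0.0154). It was not well above background on either papilloma skin array, so that its change in papilloma is a lower bound, at least 1.58-fold higher.

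The proteases that serpins act on were read from a list of 42 genes, all on the array. In papilloma 5 were called higher and 3 lower, and in tumor 10 higher and 1 lower, beside 2.43% and 1.17% of all genes in papilloma and 2.75% and 1.61% in tumor. The list medians were 0.26 and 0.35, and 0.27 and 0.57 with 7 columns. Plau, or urokinase, rose by 1.76 ± 0.26 in papilloma (limma adjusted p = 0.00654) and by 1.43 ± 0.29 in tumor (adjusted p = 0.0208), whereas its receptor Plaur was at 0.67 and 0.32 and not called. Of the neutrophil granule proteases that alpha-1-antitrypsin and Serpinb1a inhibit, Ctsg (cathepsin G) fell by 2.23 (adjusted p = 0.0135) and Prtn3 (proteinase 3) by 1.35 (adjusted p = 0.0129) in papilloma, on the log2 scale, but neither was called in tumor, at -0.86 and 0.06. Elane, neutrophil elastase, was at 0.48 in papilloma and -0.33 in tumor and not called.

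Among the other called proteases, F7, coagulation factor VII, and Klk6, a kallikrein, were higher in both lesions. In papilloma Plat, tissue plasminogen activator, rose by 1.49 (limma adjusted p = 0.0332) and Ctsk, a collagen-cleaving cathepsin, by 1.4 (adjusted p = 0.0413). In tumor the largest rises were those of the epidermal kallikreins Klk8 (3.74), Klk13 (2.33), Klk11 (2.28) and Klk6 (2.19), in the same comparison in which keratins were higher. Of 11 serpin receptors and cofactors none was called in either lesion, and Itgb3 was lower in tumor than in papilloma by 1.02 on the log2 scale (adjusted p = 0.0282). Of 17 other serine protease inhibitors 1 was called, Wfdc2, which rose by 2.40 in tumor (adjusted p = 0.0412). Slpi, a secreted elastase inhibitor of neutrophils and epithelia, had group means of 15.6 to 16.1 and was called in no comparison.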

How the data were processed

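The authors hybridized 9 one-color Agilent arrays and deposited, per array, Feature Extraction scanner output with background-subtracted fluorescence intensity per spot. A second deposited file is the authors' value table on a log2 scale, with a column per array and a row per probe. Per the methods, signals were quantile normalized in limma and chip effects taken out by ComBat, but which of this the table holds is not stated. Column medians were 6.08 to 6.12, and genes were named as on the array. RefSeq held the symbol of 60 of the 61 members, and 75 of 78 probes matched by accession.

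Here, table values were reduced to gene medians and fitted with limma 3.58.1 (R 4.3.3) over all genes and arrays, with group as the only term and 5 residual degrees of freedom. Scanner signals of 55155 probes were quantile normalized and passed through a ComBat written for this purpose, as 1 of the alternatives. Both were tested on simulated data. Tables used Python 3.11.15, pandas 2.3.3 and numpy 2.4.6, and figures matplotlib 3.10.9.

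Named with values were called members, 1 member of each clade without a call, and, of the other lists, at most 6 called genes per comparison plus Elane, Prtn3, Ctsg, Plau, Plaur and Slpi. Further uncalled members were picked after their values were seen. The values of 1 member are not reported here, though the counts include it. Members and lists were chosen with earlier results of these data known. No depth applies to arrays, and their number limits the precision.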

Additional observations from a re-analysis of the deposited data

How the results depend on the processing

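The number of arrays limits every count below, and the causes of the shifts were not tested. Counts of called serpins are given for papilloma versus papilloma skin, tumor versus tumor skin and tumor versus papilloma in this order, and were 10, 5 and 1. The counts with 7 columns are given above. A fit with 6 columns (tumor skin 1 left out as well) was chosen after the data were seen. It left 1 array in every group but papilloma, so no count is given for it. From the scanner files the counts were 11 (6 of them among the 10), 1 and 0 after quantile normalization and ComBat, beside 8.01%, 0.628% and 0.00579% of all genes. With normexp they were 14 (7 among the 10), 1 and 0, beside 8.14%, 1.72% and 0.0492%. With a slide term or with 75th percentile scaling they were 0, 0 and 0. There no gene at all was called, so these counts say nothing about the serpins. The slide term on the value table gave 3, 1 and 0, beside 2.20%, 0.583% and 0% of all genes. Array weights gave 11, 4 and 2, beside 3.58%, 3.96% and 0.968%. Requiring signal well above background on all arrays of either compared group gave 10, 7 and 2 of the 32, 45 and 45 members then tested, beside 6.23%, 6.41% and 0.981% of genes. A member can pass this filter through the group where it is high, as Serpind1 and Serpina1d did in papilloma, so these counts are no separate support. Fitting probes gave 10, 7 and 1, beside 4.39%, 5.87% and 0.675%. No level minimum gave 10, 6 and 1, beside 3.87%, 4.83% and 0.695%. A minimum of 7 gave 9, 5 and 1, beside 2.88%, 3.62% and 0.379%. Deviations of same-numbered arrays from their group means correlated at -0.942 to 0.574. In groups of 2 arrays such deviations are mirror images, and chip effects may have been taken out of the table. These correlations therefore cannot show whether the arrays' numbers pair them. With the replicate block 1, 1 and 0 serpins were called, Serpind1 in both lesions, and 1.64% of members then stood beside 1.26% of all genes in papilloma and 1.67% in tumor.

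Leaving out 1 array gave 2 to 10 calls in papilloma (2 without papilloma skin 2, 6 without papilloma 1 or papilloma 3), 1 to 6 in tumor (1 without tumor skin 1, 2 without tumor 2, 3 without tumor 1 or papilloma 3) and 0 to 1 between the lesions (0 without papilloma 1, papilloma 3 or tumor 1). Over these fits 2.62% to 3.75% of all genes were called in papilloma and 1.73% to 4.41% in tumor. The share of members was near that of all genes without papilloma skin 2 (3.28% beside 2.62% in papilloma) and below it without tumor skin 1 (1.64% beside 3.54% in tumor). Serpind1 was called in both lesions in all 9 of these fits. Over the 16 called values of single members, 105 of 144 such refits kept the call and the other 39 kept only the direction. Many of these refits left out an array of a group outside the comparison, where the fold change cannot move. The compared arrays of the called members did not overlap, so the kept direction was fixed in advance and is no support. From the scanner files the sign turned in 2 cases, both Serpinb10-ps in papilloma, at 0.15 with ComBat and 0.12 with the slide term. No serpin was called between the skin groups under these alternatives, nor in the difference between stages, which was run for the 7 columns, the scanner files, the slide term, the replicate block, array weights and the fits without 1 array.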
